A study of Drosophila melanogaster with 12 samples.

Results

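The expression levels of eye antennal discs were set against those of wing discs in larvae of the third instar of *Drosophila melanogaster*. For each of 17208 genes the deposited data hold 1 mean normalized count per tissue. Genes entered when it reached 50 in either tissue, as did 8843 of 17208 genes. The mean was divided by the sum over all genes of its tissue and given parts per 1000000 of that sum (ppm), which is called the level here, and the log2 ratio of a gene is the log2 of its level in eye antennal discs over its level in wing discs. A positive log2 ratio thus means a higher level in eye antennal discs.

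The eye antennal disc libraries came from GMR-Gal4 > UAS-*fuss* and GMR-Gal4 > w1118 larvae, and the wing disc libraries from nub-Gal4 > UAS-*fuss* and nub-Gal4 > w1118 larvae, with 3 libraries for each genotype and tissue. UAS-*fuss* raises *fuss*, which encodes a member of the Ski/Sno protein family, in the cells where the driver line is active. GMR-Gal4 drives expression posterior to the furrow of the retina, and nub-Gal4 in the wing pouch. A library was made from 40 eye antennal discs or from 30 wing discs, and all libraries of a tissue, of both genotypes, entered its mean.

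Each mean therefore pools 6 libraries and carries no replicate error, so no difference below was tested and none could be set against the spread between replicates. A gene that differs between the genotypes of a tissue has a pooled mean that lies between the levels of both. The driver line, the number of discs and the mix of sequencing lanes differ between the tissues as well. On lane 5 ran 2 libraries of eye antennal discs and 4 of wing discs, and on lane 6 ran 4 of eye antennal discs and 2 of wing discs. The tissue cannot be told apart from these. One label field of the eye antennal disc samples names nub-Gal4, while their genotype field names GMR-Gal4. The level is also not divided by gene length, so it was compared between tissues for the same gene and not between genes. In whole discs, fewer cells of a type and less RNA per cell cannot be told apart.

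Imaginal discs are epithelial sacs in the larva from which the appendages and head capsule of the adult fly are built. In the eye part of the eye antennal disc the morphogenetic furrow sweeps across the epithelium, and behind it cells leave the cell cycle and become photoreceptors, cone cells and pigment cells, while the antennal part forms the antenna and parts of the head. The wing disc forms the wing blade, the hinge and the notum of the thorax, and it is still mostly a proliferating epithelium at this stage, patterned by the ligands Hedgehog, Dpp and Wingless. A small set of transcription factors, the selector genes, gives each disc its identity.

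Most genes had nearly the same level in both tissues. The log2 ratio lay within 1.2-fold for 5555 of 8843 genes (62.8%), and its median over all genes was 0.0060 with quartiles of −0.15 and 0.21. The level was at least 4-fold higher in eye antennal discs for 656 genes (7.42%) and at least 4-fold lower there, that is higher in wing discs, for 147 genes (1.66%). A further 2485 genes lay between these limits. At 16-fold the counts were 319 genes higher in eye antennal discs and 53 higher in wing discs, and at 64-fold they were 107 and 18 genes. Across 8837 genes above 0 in both tissues, Pearson's r of the log2 levels was 0.86, which is given as a description, since genes are not independent replicates and both tissues share the same quantification.

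**Figure D1:**
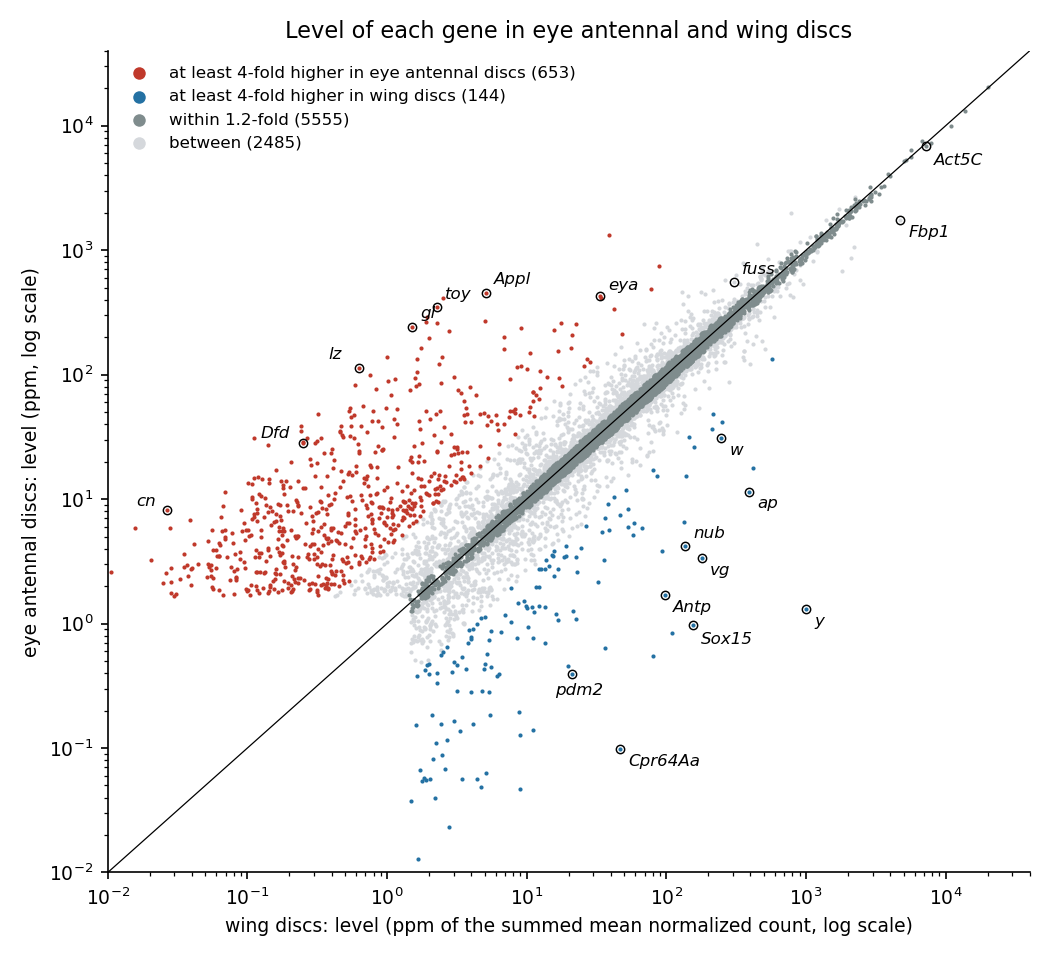
Level of each gene in eye antennal discs (vertical axis) against wing discs (horizontal axis), both ppm of the summed mean normalized count on log scales, where each point is a gene above 0 in both tissues and the line marks equal levels. Most of the 8837 points lie along the line, with *toy*, *gl*, *lz* and *Appl* far above it and *y*, *vg*, *ap*, *Antp* and *Sox15* far below it.

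The selective genes held a small part of the summed mean normalized count, which is not divided by gene length. The 656 genes higher in eye antennal discs held 1.98% of the summed mean normalized count in eye antennal discs and 0.14% in wing discs. The 147 genes higher in wing discs held 0.065% of it in eye antennal discs and 0.65% in wing discs. The equal genes held 80.6% in eye antennal discs and 82.1% in wing discs. Both directions have to be read with the inclusion rule, which is the same for both tissues. Under the minimum of 50 were 596 genes in wing discs alone and 272 in eye antennal discs alone. Of the genes higher in eye antennal discs, 487 were under it in wing discs and 169 reached it in both tissues. Of those higher in wing discs, 96 were under the minimum in eye antennal discs and 51 reached it in both. Just inside the minimum were *CG33155* with mean normalized counts of 50.02 in eye antennal discs and 44.8 in wing discs, and *CG11263* with 47.5 and 50.09. Just outside it were *sand* with 49.99 and 29.1 and *CG13692* with 49.99 and 24.5, again in eye antennal and wing discs. Around the 4-fold limit, *CG5921* had a log2 ratio of 2.01 and *CG42346* of 1.99, and on the other side *Grip* had −2.01 and *CG14258* −1.98.

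The levels of defining markers were described first. Members and lists were chosen with earlier results of these data known, so the markers are no independent check of the tissue labels. All 9 eye markers (*ey*, *eya*, *so*, *gl*, *ato*, *sens*, *elav*, *chp* and *sev*) were higher in eye antennal discs, 8 of them at least 4-fold, and their summed level was 1619 ppm in eye antennal discs and 126 ppm in wing discs. The 4 antennal markers (*Dll*, *ss*, *dan* and *danr*) summed to 441 ppm in eye antennal discs and 129 ppm in wing discs. All 6 wing markers (*vg*, *nub*, *rn*, *ap*, *Doc1* and *Doc2*) were lower in eye antennal discs, 3 of them at least 4-fold, with a summed level of 154 ppm in eye antennal discs and 899 ppm in wing discs. The notum markers *pnr*, *ara* and *caup* summed to 120 ppm in eye antennal discs and 366 ppm in wing discs. None of these markers was listed at 0 in either tissue. The wider lists were less uniform, with 4 of 13 retinal determination genes below a log2 ratio of 0. Above 0 were 2 of 20 wing selector and patterning genes and 3 of 17 hinge and notum genes.

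The retinal determination genes, which form the network that specifies the eye field, were mostly higher in eye antennal discs. At least 4-fold higher there were 8 of 13 (61.5%), against 7.42% of all genes, and the median log2 ratio was 3.0. None was higher in wing discs by that limit, against 1.66% of all genes. The 2 Pax6 genes at the top of this network, *eyeless* (*ey*) and *twin of eyeless* (*toy*), had levels of 94.4 and 347 ppm in eye antennal discs and of 1.59 and 2.27 ppm in wing discs. The log2 ratio was 5.89 for *ey* and 7.26 for *toy*, which for *toy* is a 153-fold difference. Downstream of them, the phosphatase and transcriptional coactivator *eyes absent* (*eya*) had 428 ppm in eye antennal discs and 33.2 ppm in wing discs, its homeodomain partner *sine oculis* (*so*) 163 and 20.9 ppm, and the nuclear protein *dachshund* (*dac*) 337 and 42.2 ppm. These 3 genes shared log2 ratios between 2.96 and 3.69, smaller than those of the Pax6 genes, and all 3 were well above the minimum in wing discs. The homeobox gene *Optix*, which acts at the furrow, had a log2 ratio of 3.61.

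The pair *distal antenna* (*dan*) and *distal antenna-related* (*danr*), pipsqueak-domain factors used in both the retina and the antenna, had log2 ratios of 6.53 and 5.69. Not every gene of the network followed. The Pax genes *eyegone* (*eyg*) and *twin of eyegone* (*toe*), which also act in the notum, were nearly equal, with log2 ratios of −0.22 and −0.23. The cofactor *homothorax* (*hth*) had 786 ppm in eye antennal discs and 661 ppm in wing discs. The zinc finger gene *teashirt* (*tsh*), which can induce eyes when misexpressed but also marks the proximal wing and notum, had 122 ppm in eye antennal discs and 399 ppm in wing discs, and its paralogue *tiptop* (*tio*) 55.4 and 97.5 ppm.

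Among 24 genes of photoreceptor specification 10 (41.7%) were at least 4-fold higher in eye antennal discs, against 7.42% of all genes. None was higher in wing discs by that limit, and the median log2 ratio was 1.47. The Runx factor *lozenge* (*lz*), needed in the late photoreceptors and cone cells, had 114 ppm in eye antennal discs and 0.63 ppm in wing discs, and the zinc finger factor *glass* (*gl*), which all photoreceptors require, had 243 and 1.5 ppm. Their log2 ratios of 7.5 and 7.34 were the largest of the list. The receptor tyrosine kinase *sevenless* (*sev*), which the R7 cell uses, had 261 ppm in eye antennal discs and 2.28 ppm in wing discs, and its ligand *bride of sevenless* (*boss*), presented by R8, 6.42 and 0.095 ppm. The proneural gene *atonal* (*ato*), which founds R8, had a log2 ratio of 5.63, the homeobox gene *rough* (*ro*) one of 5.93 and the protease gene *roughoid* (*ru*), which cleaves EGFR ligands, one of 6.62. The R7 and cone cell factors *prospero* (*pros*) and *phyllopod* (*phyl*) had log2 ratios of 3.90 and 3.73.

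General components that the retina shares with other epithelia were on the other side of this list. The receptor gene *Egfr* had 377 ppm in eye antennal discs and 438 ppm in wing discs, the adaptor gene *drk* 184 and 167 ppm, and the exchange factor gene *Sos* 128 and 132 ppm. Genes that EGFR signalling induces or acts through lay in between, with a log2 ratio of 1.54 for the secreted inhibitor *argos* (*aos*), 1.39 for the repressor *anterior open* (*aop*), 1.32 for the effector *pointed* (*pnt*) and 2.70 for the ligand protease *rhomboid* (*rho*). Over the whole EGFR list, 8 of 21 genes (38.1%) were within 1.2-fold, against 62.8% of all genes. At least 4-fold higher in eye antennal discs were 2 (9.52%), against 7.42% of all genes.

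Neuronal and photoreceptor differentiation genes were higher in eye antennal discs with few exceptions. At least 4-fold higher were 12 of 20 (60%), against 7.42% of all genes. Only *Rbp9*, *nvy*, *Syt1* and *Syx1A* were below a log2 ratio of 1, and the median was 2.98. *Appl*, the fly homologue of the amyloid precursor protein gene, had 457 ppm in eye antennal discs and 5.11 ppm in wing discs. The zinc finger gene *scratch* (*scrt*) had 225 and 2.79 ppm, and *bruchpilot* (*brp*), whose product builds the presynaptic active zone, 92.0 and 1.14 ppm. The pan-neuronal RNA binding protein gene *elav* had a smaller log2 ratio of 2.14, with 212 ppm in eye antennal discs and 48.3 ppm in wing discs. *chaoptin* (*chp*), a cell adhesion gene of photoreceptors, had 111 ppm in eye antennal discs and 10.1 ppm in wing discs. The microtubule-associated protein gene *futsch* had 262 and 17.6 ppm.

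The largest median of all 51 lists, 4.57, was that of the Dpr, DIP, Beat and Side proteins, immunoglobulin superfamily members that neurons use to recognise each other. Of 54 listed genes 28 reached the minimum. At least 4-fold higher in eye antennal discs were 18 of these (64.3%), against 7.42% of all genes. *dpr12* had 35.0 ppm in eye antennal discs and 0.46 ppm in wing discs, and *DIP-delta* 14.5 and 0.14 ppm. *beat-IIb* went the other way, with 1.97 ppm in eye antennal discs and 11.6 ppm in wing discs. Many of these genes were low, and 26 of the list did not reach the minimum in either tissue. The 28 genes that did summed to 409 ppm in eye antennal discs and 247 ppm in wing discs, and 5 of them lay below 0. With 1 ppm added to both levels the median of the 28 was 1.7, below the 2.97 of the retinal determination, 2.12 of the cone, pigment and bristle cell and 2.02 of the neuronal genes, so that the rank rests on low levels. Ion channels and transmitter genes had a median log2 ratio of 2.90 over 15 of 25 genes. Against 7.42% of all genes, 8 (53.3%) were at least 4-fold higher in eye antennal discs. Among these were the sodium channel gene *para* with 9.96 ppm in eye antennal discs and 0.41 ppm in wing discs, and the histamine-gated chloride channel gene *HisCl1* with 7.58 and 0.16 ppm. Both entered through eye antennal discs alone, since a count of 50 is 1.46 ppm in wing discs, and such entry favours large ratios. Of the 15 genes 4 lay below 0, and their summed level was 110 ppm in eye antennal discs and 81.7 ppm in wing discs.

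General axon guidance genes had a smaller median log2 ratio of 0.14, and 18 of 40 (45.0%) were within 1.2-fold, against 62.8% of all genes. The semaphorin receptor gene *PlexA* had 432 ppm in eye antennal discs and 422 ppm in wing discs, and the netrin receptor gene *fra* 292 and 286 ppm. At least 4-fold higher in eye antennal discs were 3 of the 40 (7.5%), close to the 7.42% of all genes. These were *robo3* with a log2 ratio of 6.53, *Drl-2* with 5.30, and *golden goal* (*gogo*), which photoreceptor axons need to reach their layer, with 5.14. Within the Roundabout family the direction thus differed, because *robo1* had a log2 ratio of −0.04 and *robo2* one of −1.37.

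The phototransduction machinery was only partly present. Of 19 listed genes 11 reached the minimum, and *ninaE*, which encodes the main rhodopsin of the adult eye, did not. The eye-specific protein kinase C gene *inaC* had 34.9 ppm in eye antennal discs and 0.24 ppm in wing discs, a log2 ratio of 7.18, and the phosphatase gene *rdgC* had 8.66 and 0.145 ppm. The phospholipase C gene *norpA*, the central enzyme of the cascade, was in contrast nearly equal with 125 ppm in eye antennal discs and 120 ppm in wing discs, and so was the diacylglycerol kinase gene *rdgA* with 36.4 and 33.4 ppm. The eye pigment genes had a median log2 ratio of 0.07 over 19 genes. Their lowest log2 ratio was −3.01, that of *w*, which is described below with the transgenes. The summed level of the eye pigment genes was 941 ppm in eye antennal discs and 1134 ppm in wing discs. The granule transport genes among them that every cell uses for lysosomes, such as *car*, *dor* and *lt*, lay between −0.03 and 0.07, while the ommochrome genes *cn*, *cd* and *st* had log2 ratios of 8.25, 5.22 and 3.12 at low levels of 8.14, 2.85 and 4.37 ppm in eye antennal discs.

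Of 14 genes of cone, pigment and bristle cells 8 (57.1%) were at least 4-fold higher in eye antennal discs, against 7.42% of all genes. *ocelliless* (*oc*), a homeobox gene of the head and of photoreceptor subtypes, had 98.9 ppm in eye antennal discs and 0.76 ppm in wing discs, and *Lim1* 44.4 and 1.13 ppm. The homeobox neighbours *B-H1* and *B-H2* had 61.6 and 68.6 ppm in eye antennal discs and 11.1 and 11.7 ppm in wing discs. *Sox15* was the exception, with 0.97 ppm in eye antennal discs and 155 ppm in wing discs, a log2 ratio of −7.32. *Sox15* is used in bristle sockets and is also known from the wing hinge.

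The wing selectors gave the counterpart. None of 20 was at least 4-fold higher in eye antennal discs, against 7.42% of all genes. At least 4-fold lower there were 5 (25%), against 1.66% of all genes, and the median log2 ratio was −0.65. *vestigial* (*vg*), the wing selector that binds Scalloped, had 3.36 ppm in eye antennal discs and 179 ppm in wing discs, a 53.3-fold difference. The POU domain gene *nubbin* (*nub*), whose driver line was used for the wing discs, had 4.20 ppm in eye antennal discs and 137 ppm in wing discs, and its paralogue *pdm2* 0.39 and 21.1 ppm. *apterous* (*ap*), the dorsal selector, had 11.5 ppm in eye antennal discs and 393 ppm in wing discs. *zfh2*, a zinc finger homeobox gene of the hinge, had 133 and 570 ppm.

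Other genes of wing patterning differed less. The DNA-binding partner of Vestigial, *scalloped* (*sd*), had 255 ppm in eye antennal discs and 387 ppm in wing discs. The Dpp target genes *salm*, *salr* and *bi* had log2 ratios of −0.89, −1.05 and −0.68, and the genes *brk* and *Dad* of −0.24 and −0.42. *rotund* (*rn*), a gene of the wing hinge and pouch that also acts in antenna and leg, had 111 ppm in eye antennal discs and 148 ppm in wing discs, so that 1 of the wing markers was close to equal. The gene *no ocelli* (*noc*) was the only 1 of the 20 with a log2 ratio above 0.5, at 0.84.

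**Figure D2:**
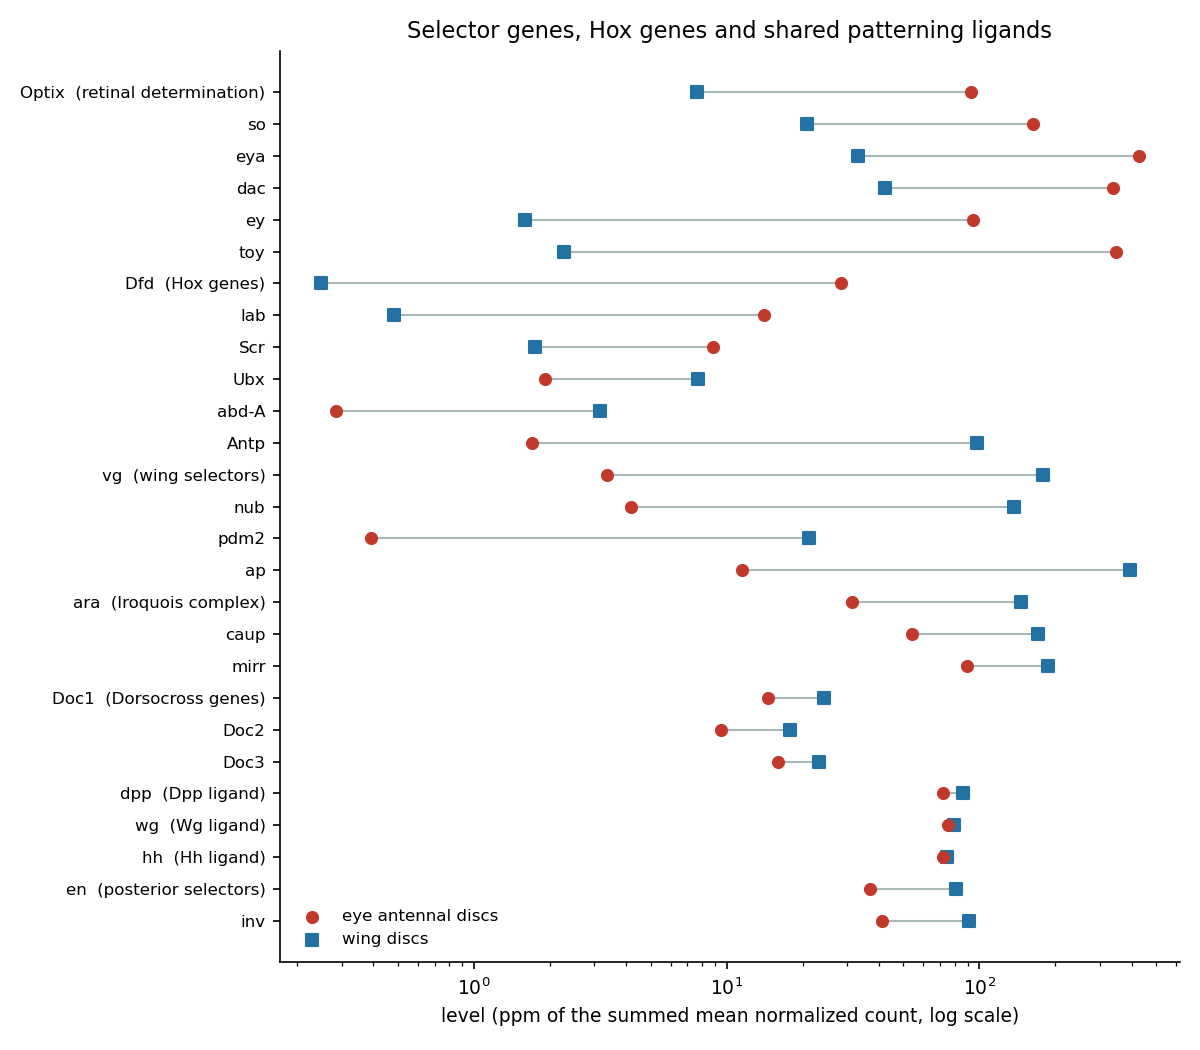
Levels in eye antennal discs (circles) and wing discs (squares) ppm of the summed mean normalized count, on a log scale, for 27 selector genes, Hox genes and patterning ligands. The retinal determination genes and *Dfd*, *lab* and *Scr* lie higher in eye antennal discs, *Ubx*, *abd-A*, *Antp*, *vg*, *nub*, *pdm2* and *ap* lie higher in wing discs, and the symbols of *dpp*, *wg* and *hh* nearly coincide.

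Genes of the hinge and notum had a median log2 ratio of −1.07. At least 4-fold lower in eye antennal discs were 5 of 17 (29.4%), against 1.66% of all genes. The POU gene *ventral veins lacking* (*vvl*) had 17.9 ppm in eye antennal discs and 414 ppm in wing discs, the homeobox gene *Drop* (*Dr*) 6.59 and 134 ppm, and the GATA factor gene *grain* (*grn*) 15.4 and 138 ppm. The notum GATA factor gene *pannier* (*pnr*), which also acts in the dorsal head, had a log2 ratio of only −0.53. Among 15 vein and intervein genes, the vein gap gene *knot* (*kn*) had 1.26 ppm in eye antennal discs and 21.5 ppm in wing discs, and *blistered* (*bs*), which encodes the serum response factor of intervein cells, 23.7 and 75.1 ppm. The EGFR ligand gene *vein* (*vn*) had a log2 ratio of −1.78. *rho*, named above among the photoreceptor genes, was the only vein gene at least 4-fold higher in eye antennal discs.

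Several Hox genes differed between the discs. Of 14 listed homeotic genes and cofactors 9 reached the minimum. At least 4-fold higher in eye antennal discs were 3 (33.3%) and at least 4-fold lower there 3 (33.3%). Over all genes these shares were 7.42% and 1.66%. *Deformed* (*Dfd*), *labial* (*lab*) and *Sex combs reduced* (*Scr*), the genes of the head and first thoracic segment, had levels of 28.4, 14.05 and 8.82 ppm in eye antennal discs and of 0.25, 0.48 and 1.74 ppm in wing discs. *Antennapedia* (*Antp*), the gene of the second thoracic segment, had 1.70 ppm in eye antennal discs and 97.7 ppm in wing discs, a log2 ratio of −5.85. *Ultrabithorax* (*Ubx*) had 1.91 and 7.72 ppm, just inside the 4-fold limit with a log2 ratio of −2.01, and *abd-A* 0.29 and 3.15 ppm. The Hox cofactor gene *exd* was equal, with 332 ppm in eye antennal discs and 321 ppm in wing discs.

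The ligand genes that pattern both discs were close to equal. *dpp*, *hh* and *wg* had 72.1, 71.9 and 75.2 ppm in eye antennal discs and 85.9, 74.6 and 79.5 ppm in wing discs. Within 1.2-fold were 8 of 13 compartment and Hedgehog genes (61.5%), 17 of 26 genes of the TGF-beta pathway (65.4%) and 10 of 20 Wingless and Wnt genes (50%). These shares were near or below the 62.8% of all genes. The median log2 ratios were −0.20, −0.09 and −0.03, and none of the 13 or of the 20 was 4-fold apart. Of the Hedgehog genes, the selectors of posterior compartments *en* and *inv* had log2 ratios of −1.14 each and the receptor gene *ptc* one of 0.55.

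In the TGF-beta pathway the Smad genes *Mad*, *Med* and *Smox* had log2 ratios of −0.10, 0.21 and 0.13 and the receptor genes *put*, *sax*, *wit* and *babo* lay between −0.08 and 0.11, while the Dpp receptor gene *tkv* had 348 ppm in eye antennal discs and 508 ppm in wing discs. *Snoo*, the other Ski/Sno gene of the fly, had 51.9 ppm in eye antennal discs and 101 ppm in wing discs. The crossvein gene *cv-2*, which encodes a BMP binding protein, had a log2 ratio of −1.43. The single gene of this pathway at least 4-fold apart was the activin ligand gene *Actbeta*, with 23.3 ppm in eye antennal discs and 0.35 ppm in wing discs. Among the Wingless genes, the receptor gene *fz2* had 436 ppm in eye antennal discs and 773 ppm in wing discs, and the secreted antagonist gene *Notum* 17.8 and 47.5 ppm.

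In the Notch pathway 8 of 23 genes (34.8%) were within 1.2-fold, against 62.8% of all genes, and the median log2 ratio was 0.41. Log2 ratios near 0 were found for the receptor gene *Notch* (*N*) with −0.08, the ligand gene *Dl* with 0.17 and the transcription factor gene *Su(H)* with 0.08. The second ligand gene *Ser* and the glycosyltransferase gene *fng*, which act at the dorsoventral boundary, had log2 ratios of −1.21 and −0.80. The genes of the Enhancer of split complex, which respond to Notch, went in different directions. *E(spl)mgamma-HLH* had 150 ppm in eye antennal discs and 10.5 ppm in wing discs, *E(spl)m5-HLH* 8.80 and 1.42 ppm, *E(spl)m4-BFM* 125 and 28.5 ppm and *E(spl)mbeta-HLH* 134 and 131 ppm. *E(spl)m6-BFM* went the other way with 1.19 ppm in eye antennal discs and 16.1 ppm in wing discs. In the Hippo list 9 of 16 genes (56.25%) were within 1.2-fold, among them *yki* with 89.8 ppm in each tissue, and *vg* was its only gene 4-fold apart. The cadherin genes *ds* and *ft* had log2 ratios of −0.83 and −0.45.

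**Figure D3:**
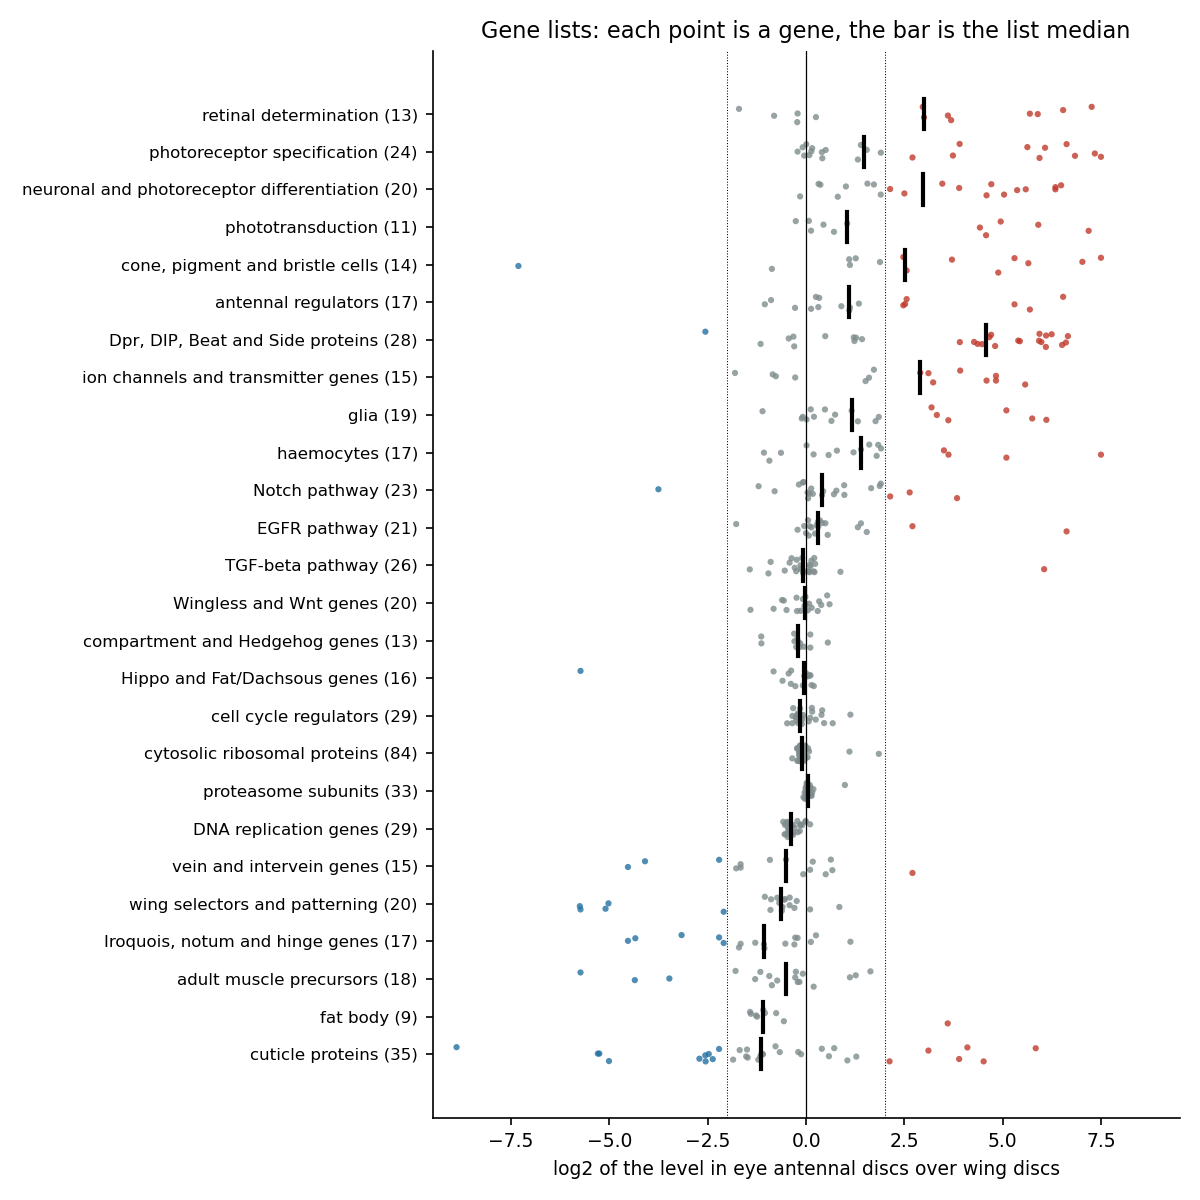
Log2 of the level in eye antennal discs over wing discs (horizontal axis) for the members of 26 gene lists, where each point is a gene, the black bar is the list median, the number in brackets is the number of genes and dotted lines mark 4-fold. Retinal, neuronal and cell recognition lists reach far to the right, wing, notum and hinge lists to the left, and the ribosomal protein and proteasome lists stay in a narrow band around 0.

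Housekeeping complexes were equal. Of 84 cytosolic ribosomal protein genes 81 were within 1.2-fold, with a median log2 ratio of −0.10 and 79 of 84 below 0, and of 72 mitochondrial ribosomal protein genes 71 were, with a median of −0.12. Of all 8843 genes 4327 lay below 0 and 4516 above it. Of 33 proteasome genes 32 were within 1.2-fold, and 28 of 33 lay above 0 with a median of 0.04. The exception was *Prosalpha1R*, with 2.83 ppm in eye antennal discs and 1.43 ppm in wing discs. Respiratory chain and ATP synthase genes were within 1.2-fold in 62 of 66 cases. Of 15 genes often used for normalization 12 were within 1.2-fold, such as *Act5C* with 6805 ppm in eye antennal discs and 7225 ppm in wing discs, *eEF1alpha1* with 13058 and 13696 ppm and *alphaTub84B* with 6373 and 5615 ppm. Outside it were *Gapdh1*, *Gapdh2* and *eEF1alpha2*, with log2 ratios of −0.33, −0.27 and −0.69. Cell junction and polarity genes, which both epithelia need, were within 1.2-fold in 17 of 23 cases (73.9%), against 62.8% of all genes. Among them *shg*, the E-cadherin gene, had 614 ppm in eye antennal discs and 615 ppm in wing discs.

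DNA replication genes had a small but uniform difference. Of 29 genes 28 were lower in eye antennal discs, against 4327 of all 8843 genes. The median log2 ratio was −0.39, with a range from −0.58 to 0.10, and none reached 4-fold. The ribonucleotide reductase gene *RnrS* had 102 ppm in eye antennal discs and 153 ppm in wing discs, *PCNA* 168 and 230 ppm, and the helicase subunit genes *Mcm2* to *Mcm7* of the list log2 ratios between −0.48 and −0.33. Only *Psf2* lay above 0. Cell cycle regulators as a whole had a median log2 ratio of −0.15, with 19 of 29 (65.5%) within 1.2-fold, against 62.8% of all genes. Apart from these stood *string* (*stg*), the Cdc25 phosphatase gene that controls entry into mitosis, with 276 ppm in eye antennal discs and 127 ppm in wing discs, and *dacapo* (*dap*), the gene of a cyclin-dependent kinase inhibitor, with 146 and 91.4 ppm. Apoptosis genes were within 1.2-fold in 10 of 16 cases (62.5%), about the share of all genes, and the ligand gene *eiger* (*egr*) had a log2 ratio of 1.6.

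Genes of the ecdysone cascade, which mark the developmental stage, had a median log2 ratio of 0.10, but 9 of 23 (39.1%) were within 1.2-fold, against 62.8% of all genes, and a further 12 lay between the limits. The receptor gene *EcR* had 118 ppm in eye antennal discs and 142 ppm in wing discs, and *br* 2017 and 2039 ppm. Apart from the rest were 2 genes, the insulin-binding protein gene *ImpL2* with 490 ppm in eye antennal discs and 78.0 ppm in wing discs, and *Eip93F* with 10.2 and 1.07 ppm. The lowest log2 ratio of the list was that of *Hr38*, a nuclear receptor gene, with −1.88 at 0.74 ppm in eye antennal discs and 2.73 ppm in wing discs. Of 19 heat shock genes 14 lay above 0, against 4516 of all 8843 genes, with a median log2 ratio of 0.13. At least 4-fold higher in eye antennal discs were 2 (10.5%), against 7.42% of all genes. *Hsp83* and *Hsc70-4* were equal. *Hsp70Bb*, the only 1 of the 19 at least 4-fold higher in wing discs, had 48.0 ppm in eye antennal discs and 215 ppm in wing discs. The Hsp70 genes are near-identical copies, so the split of reads among them is uncertain. Sex determination and dosage compensation genes were within 1.2-fold in 11 of 13 cases, and the roX RNAs of male dosage compensation, *lncRNA:roX1* and *lncRNA:roX2*, had log2 ratios of 0.21 and 0.20.

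Related genes that lie within 1 Mb of each other in the genome had log2 ratios between 0.0038 and 1.46 apart. Of 17 such pairs and triplets 6 lay within 1.2-fold of each other and 9 were more than 0.5 apart on the log2 scale, and no baseline for unrelated genes was computed. *eyg* and *toe*, within 45.5 kb of chromosome arm 3L, differed by 0.0094 on the log2 scale, and *en* and *inv*, within 53.7 kb of 2R, by 0.0038. *B-H1* and *B-H2* on X differed by 0.084, *salm* and *salr* on 2L by 0.16, and the Dorsocross genes *Doc1*, *Doc2* and *Doc3* on 3L lay between −0.91 and −0.54. *nub* and *pdm2*, 98.7 kb from end to end on 2L (12587625 to 12686306 in BDGP6.54), had log2 ratios of −5.03 and −5.75. Wider ranges were found for the Iroquois genes *ara*, *caup* and *mirr*, from −2.21 to −1.06 over 129.6 kb of 3L (12580672 to 12710249), and for *elB* and *noc*, at −0.62 and 0.84 within 103.4 kb of 2L. *ey* and *toy* differed by 1.37, *tsh* and *tio* by 0.89, *dan* and *danr* by 0.85, and *odd*, *sob* and *drm* by 0.75.

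The neighbours of selective genes were counted as well. Among protein coding genes of the nuclear genome, 203 of 639 genes higher in eye antennal discs (31.8%) had such a gene directly next to them among the included genes, against 14.5% of all 8465 coding genes. For genes higher in wing discs this was 24 of 134 (17.9%) against 3.11%. These shares are descriptions, and overlapping genes, whose reads can be assigned to either, count among neighbours. *CG44195* and *Ank2* are such a case, since *CG44195* lies within *Ank2* on the same strand of 3L and had a log2 ratio of 7.60 where *Ank2* had 5.76.

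On chromosome 4, 13 of 83 genes (15.7%) were at least 4-fold higher in eye antennal discs, against 6.95% to 7.76% on the other major arms and X. Besides *toy*, *ey*, *Actbeta* and *sv*, these were *Ekar*, *onecut*, *dpr7*, *Syt7*, *lncRNA:CR44024*, *CG11155*, *dati*, *Cadps* and *CG32017*, which were named after their values had been seen. The homeobox gene *onecut* had 42.3 ppm in eye antennal discs and 0.77 ppm in wing discs, and *Cadps*, a gene of vesicle release, 47.5 and 6.06 ppm. Only *zfh2* was at least 4-fold lower in eye antennal discs. Of the genes on X 0.82% were at least 4-fold higher in wing discs, against 1.74% to 1.92% on the arms of chromosomes 2 and 3.

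The share of selective genes varied with the level and with the extent of a gene. Of the genes whose higher mean normalized count was between 50 and 200, 22.3% were at least 4-fold higher in eye antennal discs, 4.88% higher in wing discs and 25.2% within 1.2-fold. From 5000 upwards these shares were 1.58%, 0.75% and 75.8%. Genes spanning less than 2 kb in the annotation were at least 4-fold higher in eye antennal discs in 4.58% of cases, against 19.2% of those from 20 to 50 kb and 18.0% of those of 50 kb and more. For genes higher in wing discs the share stayed between 1.12% and 2.17% over all span classes. The median span was 6.16 kb for genes higher in eye antennal discs, 3.08 kb for those higher in wing discs and 2.60 kb for equal genes. Noncoding RNA genes were at least 4-fold higher in eye antennal discs in 11 of 239 cases (4.60%) and higher in wing discs in 13 (5.44%).

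**Figure D4:**
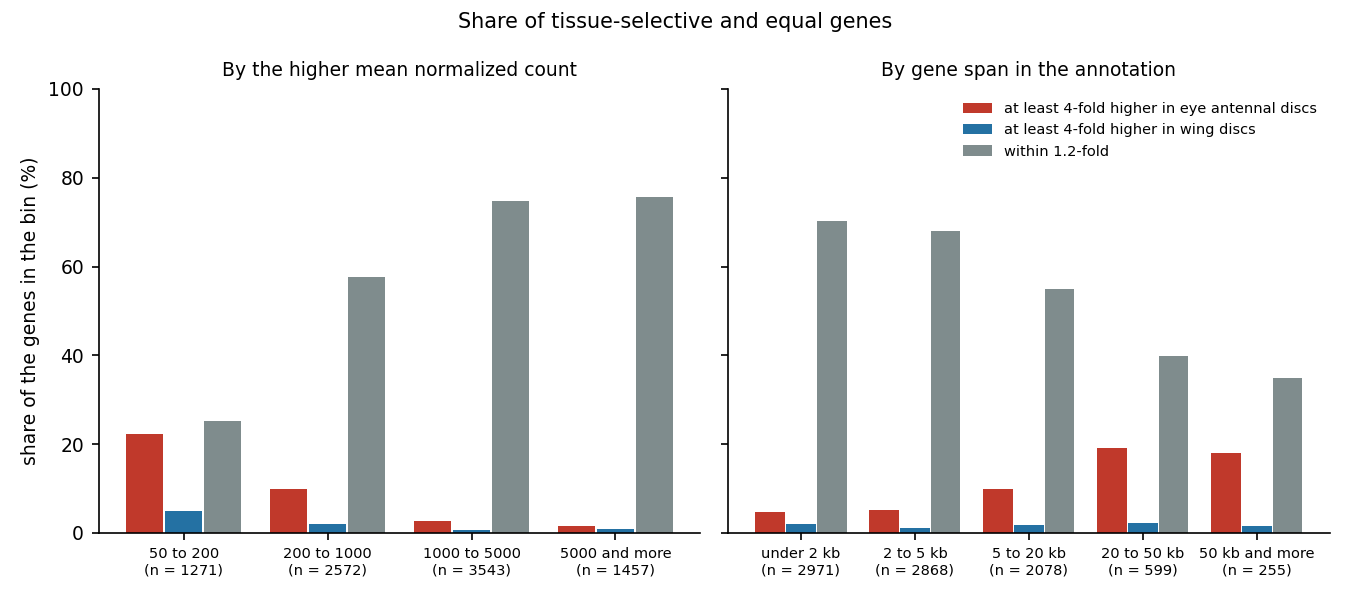
Share of genes (vertical axis, percent of the genes in the bin) that were at least 4-fold higher in eye antennal discs, at least 4-fold higher in wing discs or within 1.2-fold, by the higher of both mean normalized counts (left) and by gene span (right), with the number of genes under each bin. The equal share climbs to 75.8% with the count and declines to 34.9% with the span, while the share higher in eye antennal discs is 22.3% in the lowest count bin and 19.2% from 20 to 50 kb.

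Outside the lists, several genes of large difference had no named role here. Among genes that averaged at least 500 normalized counts in the higher tissue, *CG13840* had the largest log2 ratio, 8.12, with 30.9 ppm in eye antennal discs and 0.11 ppm in wing discs. *CG34377* had 413 and 2.53 ppm, *CG14516* 291 and 1.93 ppm, and *SP2353* 263 and 1.89 ppm. Among genes with known products, *jelly belly* (*jeb*), the ligand of the receptor tyrosine kinase Alk, had 38.3 ppm in eye antennal discs and 0.24 ppm in wing discs, and *klingon* (*klg*), an immunoglobulin adhesion gene of R7, 82.1 and 0.59 ppm. The noncoding RNA *lncRNA:CR33938* had 1314 ppm in eye antennal discs and 38.8 ppm in wing discs, and the matrix metalloproteinase gene *Mmp2* 742 and 88.8 ppm.

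In the other direction, the actin gene of the flight muscle *Act88F* had 0.54 ppm in eye antennal discs and 80.5 ppm in wing discs, and the cuticle protein gene *Cpr64Aa* 0.098 and 46.5 ppm. *CG4382* had 0.84 and 110 ppm, *teyrha-meyrha* (*tey*) 0.63 and 36.1 ppm and *Osi3*, of the Osiris gene cluster, 0.45 and 19.6 ppm. With the same minimum, the largest negative log2 ratio was that of *yellow* (*y*), −9.59, with 1.3 ppm in eye antennal discs and 1001 ppm in wing discs. *y* is a body colour gene that fly stocks often carry as a marker allele or transgene, and the stock at this locus is not stated in the labels, so tissue and stock cannot be told apart for it. Listed at 0 in 1 tissue were 6 genes. In eye antennal discs these were *CG13159* (14.4 ppm in wing discs), *His1:CG33852* (2.73) and *CG41284* (1.92), and in wing discs *CG14042* (4.74 ppm in eye antennal discs), *CG33671* (3.91) and *Rx* (2.06), a homeobox gene of head and brain. No fold change is given for these.

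The genes of the transgenes, *fuss* and *w*, and *sv*, *ct* and *wg*, which the study's text discusses in connection with *fuss*, are described here by name. Their pooled means mix the genotypes. The study also reports that *fuss* overexpressing clones lack *eya* expression, and *eya* is described above with the retinal genes. None of these genes was taken out of the counts and lists above. There *sv* is among the genes of chromosome 4, *wg* among the ligand genes and *w* among the eye pigment genes. *fuss* itself had 555 ppm in eye antennal discs and 303 ppm in wing discs, a log2 ratio of 0.87, in which the driver line and the tissue cannot be told apart. It lies on chromosome 4 (962341 to 978489 in BDGP6.54), 11.2 kb from *toy* (989725 to 1007922), whose log2 ratio was 7.26. *white* (*w*), the eye colour gene that marks such transgenes, had 30.7 ppm in eye antennal discs and 248 ppm in wing discs. The Pax2 gene *shaven* (*sv*), of cone, pigment and bristle cells, had 10.9 and 0.84 ppm, and the homeobox gene *cut* (*ct*) 102 and 47.0 ppm. *wg* had 75.2 ppm in eye antennal discs and 79.5 ppm in wing discs. How much of these values comes from each genotype was not analysed here.

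Markers of cells other than the disc epithelium differed between the tissues too. The glial markers *repo*, *moody*, *wrapper* and *gcm* were all higher in eye antennal discs, where glia migrate in along the optic stalk, with a summed level of 82.3 ppm in eye antennal discs and 12.5 ppm in wing discs. *repo*, the defining gene of glia, had 32.8 and 0.48 ppm. The 5 haemocyte markers *Hml*, *NimC1*, *eater*, *srp* and *Pxn* summed to 318 ppm in eye antennal discs and 101 ppm in wing discs, and the prophenoloxidase genes of crystal cells, *PPO1* and *PPO2*, had 256 and 415 ppm in eye antennal discs and 22.6 and 33.8 ppm in wing discs. *lz*, described above with the photoreceptor genes, is also a crystal cell gene. The 4 neuroblast markers *wor*, *dpn*, *mira* and *ase* summed to 62.7 ppm in eye antennal discs and 27.1 ppm in wing discs. Over their whole lists, 16 of 19 glial, 14 of 17 haemocyte and 9 of 13 neuroblast genes lay above 0, with median log2 ratios of 1.16, 1.4 and 0.39. Of all 8843 genes 4516 lay above 0. The summed levels of these whole lists differed less than those of the markers. They were 5027, 2039 and 1136 ppm in eye antennal discs and 4604, 1484 and 1068 ppm in wing discs.

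Markers of some other tissues had higher levels in wing discs. The adult muscle precursors, which lie on the notum of the wing disc, had 6 of 6 markers lower in eye antennal discs, with a summed level of 159 ppm in eye antennal discs and 316 ppm in wing discs. *twi* had 3.23 and 35.97 ppm and *Him* 1.09 and 22.4 ppm, both at least 4-fold apart. The tracheal genes *trh* and *btl* had 5.83 and 5.91 ppm in eye antennal discs and 66.5 and 15.7 ppm in wing discs, but over the whole tracheal list 10 of 16 genes lay above 0, the median log2 ratio was 0.15 and the summed level was 2818 ppm in eye antennal discs and 2744 ppm in wing discs. The fat body genes *Lsp1alpha*, *Lsp1beta*, *Lsp2* and *Fbp1* summed to 3516 ppm in eye antennal discs and 8974 ppm in wing discs. The salivary glue genes *Sgs3* and *Sgs5* had 130 and 52.6 ppm in eye antennal discs and 359 and 64.3 ppm in wing discs, while the salivary gland marker *fkh* went the other way with 8.12 ppm in eye antennal discs and 1.36 ppm in wing discs. Over their whole lists, 14 of 18 muscle precursor, 8 of 9 fat body and 8 of 11 salivary gland and gut genes lay below 0, with median log2 ratios of −0.51, −1.09 and −0.30. Of all 8843 genes 4327 lay below 0. Summed levels of these whole lists were 2123, 4946 and 537 ppm in eye antennal discs and 2428, 11867.5 and 776 ppm in wing discs. None of the cell type markers was at 0 in either tissue. Their part in the differences above, for instance in the neuronal, notum and cuticle genes, was not tested.

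**Figure D5:**
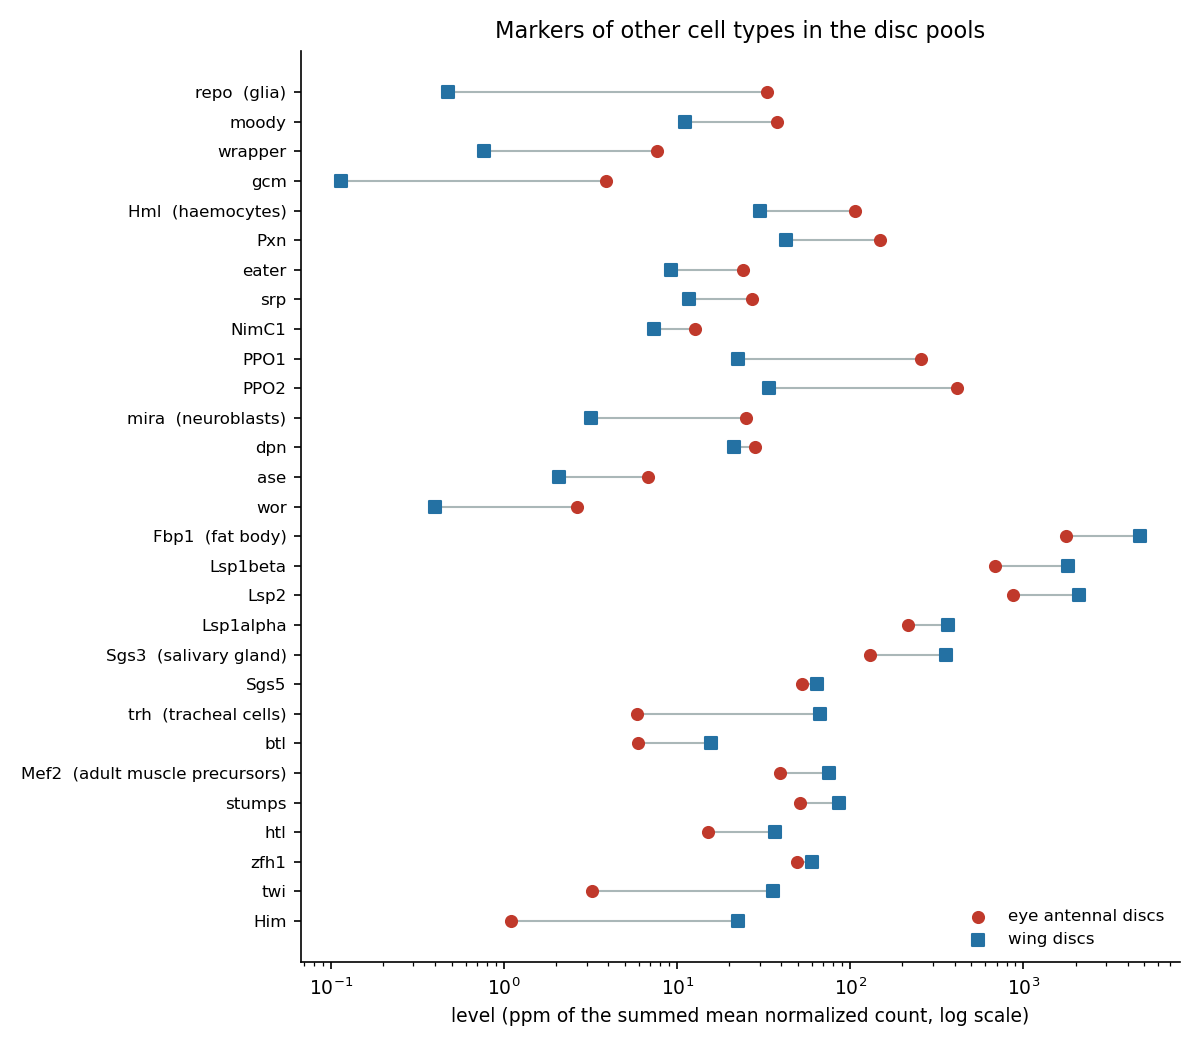
Levels of 29 markers of cells other than the disc epithelium in eye antennal discs (circles) and wing discs (squares), ppm of the summed mean normalized count on a log scale. Glial, haemocyte and neuroblast markers lie higher in eye antennal discs, fat body, muscle precursor and the tracheal markers *trh* and *btl* higher in wing discs, and the fat body genes reach 1750 ppm in eye antennal discs and 4702 ppm in wing discs for *Fbp1*.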

How the data were processed

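RNA-seq of 12 libraries, 3 for each genotype and tissue, was analysed from the deposited comparison tables, 1 for eye antennal and 1 for wing discs. The authors quantified reads with Salmon 1.1.0, imported them with tximeta and compared genotypes with DESeq2 1.30.0, per the submitters' processing notes and the methods (genome BDGP6). The deposited mean normalized count is a signal, the authors' mean over the 6 libraries of a tissue after scaling by their size factors. Values and depth per library were not analysed here, so precision is unknown. The other columns hold the authors' genotype comparison (fold change, standard error, statistic and p-values) and were not used. *fuss*-responsive genes were therefore set apart only by some names in the study's text (*sv*, *ct* and *wg*), and they stayed in the counts and lists. Use of the strand is not given in the sources used here.

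Both tables were joined on the gene identifier. Each mean was divided by the table's sum and multiplied by 1000000 (ppm). No pseudocount was added. Genes with a mean of at least 50 in either table were kept, called selective from 4-fold and equal within 1.2-fold. Names and positions came from BDGP6.54, which matched 8771 of 8843 genes. The members and the 51 lists were chosen with earlier results of these data known, and 15 list symbols matched no gene. Named were list members, the set apart genes, the 12 genes of largest ratio in each direction with a mean of at least 500, the 12 of highest level among 4-fold genes, the 10 highest equal genes and up to 6 genes per tissue listed at 0. Alternatives were other scalings, minimums, fold limits and a pseudocount of 1 ppm. Calculations ran in Python 3.11.15 with numpy 2.4.6 and pandas 2.3.3, were tested on simulated data, and were plotted with matplotlib 3.10.9. A planned search for promoter motifs was not run.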

Additional observations from a re-analysis of the deposited data

How the results depend on the processing

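No paired analysis was possible because each tissue has 1 pooled value per gene, and for the same reason no library could be left out in turn. Centring on the median log2 ratio, leaving *fuss* and *w* or the 20 highest genes out of the sums, and using nuclear protein coding genes only moved the median log2 ratio by less than 0.01, left 654 to 656 genes (639 for coding genes only) higher in eye antennal discs and 147 (134) higher in wing discs. Among list medians, that of the sex determination and dosage compensation genes turned, with 0.0087 at first and −0.079 for coding genes only. The counts depended on the low values. With 1 ppm added to both levels, 422 genes were at least 4-fold higher in eye antennal discs and 82 higher in wing discs. With a minimum of 200 in either tissue there were 372 and 85 genes, with a minimum of 50 in both tissues 169 and 51, and with a minimum of 10 in either 979 and 255. At 2-fold the counts were 993 and 433, and at 8-fold 465 and 81. Within 1.5-fold, a limit chosen after seeing the data, were 6910 genes. Adding 1 ppm also lowered the median log2 ratio to 2.02 for neuronal, 0.68 for phototransduction, 2.12 for cone, pigment and bristle cell, 1.22 for proneural, 1.36 for ion channel and 1.70 for Dpr, DIP, Beat and Side genes, and changed it to −0.84 for cuticle protein genes. Of 1004 named genes, 155 moved by more than 1.2-fold with it and 849 did not, since low levels shrink by construction.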

Other observations

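Cuticle protein genes, of which 35 of 123 reached the minimum, were split between the tissues. At least 4-fold higher in eye antennal discs were 6 (17.1%) and at least 4-fold lower there were 10 (28.6%). Over all genes these shares were 7.42% and 1.66%. The median log2 ratio of the list was −1.15. *Cpr97Ea* had 60.8 ppm in eye antennal discs and 3.55 ppm in wing discs, *Cpr12A* 15.4 and 85.8 ppm and *Cpr49Ac* 204 and 437 ppm. The larval cuticle genes *Lcp1*, *Lcp2*, *Lcp3* and *Lcp4* all lay below 0, between −2.21 and −1.49, while the Lcp65A genes went both ways, with log2 ratios of 2.12 for *Lcp65Ac*, 4.51 for *Lcp65Ad*, −2.56 for *Lcp65Ab2* and −1.22 for *Lcp65Ag2*. T-box genes were split as well, since the midline genes *H15* and *mid* had log2 ratios of 5.48 and 2.77 and the other 4 included genes lay between −0.91 and −0.54.

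Of 24 glutathione S-transferase genes 11 (45.8%) were within 1.2-fold, against 62.8% of all genes, while *GstZ2* had 75.5 ppm in eye antennal discs and 3.24 ppm in wing discs and *GstE14*, which acts in ecdysteroid synthesis, 4.34 and 0.29 ppm. Of 33 cytochrome P450 genes 16 (48.5%) were within 1.2-fold. At least 4-fold apart were *Cyp6g2* with 6.46 ppm in eye antennal discs and 0.53 ppm in wing discs, *Cyp4g15* with 2.27 and 0.16 ppm, and *Cyp4s3* with 0.56 and 2.43 ppm. Among the V-ATPase genes 13 of 18 (72.2%) were within 1.2-fold, and the subunit gene *VhaM9.7-a* had 2.97 and 0.037 ppm. Of 179 odorant, gustatory and ionotropic receptor genes only 7 reached the minimum, and none of these was 4-fold apart.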
